A study of Homo sapiens with 15 samples.

Results

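The nuclear-encoded genes of the mitochondrial respiratory chain and ATP synthase were followed across a non-malignant oral epithelial cell line and 2 oral squamous carcinoma cell lines with and without YBX1. Members were taken by symbol: the NDUFA, NDUFB, NDUFC, NDUFS and NDUFV families of complex I, SDHA to SDHD of complex II, the UQCR genes of complex III, the COX4 to COX8 genes of complex IV and the ATP5F, ATP5M and ATP5P genes of complex V. Of the 12995 genes in the deposited tables, 79 matched: 36 of complex I, 4 of complex II, 9 of complex III, 11 of complex IV (NDUFA4 and NDUFA4L2 counted here), 18 of complex V, and NDUFB2-AS1, an antisense RNA that carries a subunit's symbol and codes for no subunit. COX6A2, COX6B2, COX7A1, COX7B2 and COX8C had no row in the tables, and COX4I1, CYC1, NDUFAB1, COX7A2L and ATP5IF1 lay outside the symbols and were read as a separate list. All 79 members had a value in every library and no further filter on low values was applied.

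The respiratory chain passes electrons from NADH (complex I) and succinate (complex II) through complex III to oxygen at complex IV, and the proton gradient that complexes I, III and IV build drives ATP synthesis at complex V. Complex II is coded by the nucleus alone, whereas the other complexes also hold subunits coded by mitochondrial DNA, so their assembly draws on transcripts from both genomes. The nuclear promoters are known for binding sites of NRF1, of the ETS factor GABP and of YY1, and YBX1, a cold-shock domain protein that binds DNA and RNA, is named for the Y-box, an inverted CCAAT sequence.

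The libraries came from 5 groups of 3. OKF6, a normal oral epithelial line, was labelled wild type with no construct, and was grown in keratinocyte serum-free medium. SCC25 +YBX1 and SCC25 -YBX1, in the same medium, and SCC15 +YBX1 and SCC15 -YBX1, in DMEM with serum, are oral cancer cells that express Cas9 from FUCas9Cherry and, when doxycycline is given, a YBX1 guide RNA from pFgh1UTG, and were sorted as double-fluorescent pools, not clones. The -YBX1 groups received doxycycline at 1 µg/ml and the +YBX1 groups, labelled wild type, did not. The sample titles carry YBX1KO in all of these groups, with DOXpos for -YBX1 and DOXneg for +YBX1. All groups carry a label of 3 days. In comparisons with SCC15, cell line and medium cannot be told apart. In those with OKF6, cell line cannot be told apart from the constructs and the sorting. Doxycycline was given with the guide only, and the +YBX1 libraries served both in the comparison of lines and as the reference of the knockdown. Nothing in the labels says that replicates were separate cultures, so the p-values below measure the spread between libraries, which may be technical.

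Each library held 4075290 to 6118501 counted 3′-end reads, and values are given as CPM, read counts scaled to a common normalised library size. One read was worth 0.138 to 0.226 CPM. OKF6 and SCC25 carried keratinocyte markers, with a summed level over 14 genes of 30083 to 41234 CPM in OKF6 and 15065 to 26341 CPM in SCC25 +YBX1, whereas SCC15 +YBX1 held 270 to 273 CPM, with KRT15 and TP63 at 3 reads or fewer. Of 11 fibroblast markers only VIM, COL1A1, LUM and ACTA2 had a row, with a summed level of 117 to 146 CPM in OKF6, 711 to 1218 CPM in SCC25 +YBX1 and 357 to 378 CPM in SCC15 +YBX1. Of 9 immune markers 3 had a row, summed to at most 59.8 CPM, and no endothelial or muscle marker had one. In bulk libraries, fewer cells that express a gene and less RNA of it per cell cannot be told apart.

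Promoters of 7 members are shown first, because they belong to the 6 members higher in both carcinoma lines than in OKF6 that hold an NRF1, ETS or YY1 match, and to NDUFA3, the member with the largest excess of SCC15 over SCC25. Each runs from 250 bases before the RefSeq start to 30 bases after it (GRCh38.p14), 5′ to 3′ on the gene's own strand. Capitals mark matches, on either strand, to GCGC, any base and TGCGC in a row (NRF1), CCGGAAG (ETS), GCCATNTTG (YY1), CACGTG (MYC/MAX) and CCAAT (Y-box core). The stretches are chr9:122159750-122160029 on the minus strand for NDUFA8, chr19:29213122-29213401 on the minus strand for UQCRFS1, chr14:103921500-103921779 on the minus strand for ATP5MPL (current symbol ATP5MJ), chr2:97645812-97646091 on the plus strand for COX5B, chr11:47578824-47579103 on the plus strand for NDUFS3, chr11:68030431-68030710 on the plus strand for NDUFS8 and chr19:54102605-54102884 on the plus strand for NDUFA3.
NDUFA8: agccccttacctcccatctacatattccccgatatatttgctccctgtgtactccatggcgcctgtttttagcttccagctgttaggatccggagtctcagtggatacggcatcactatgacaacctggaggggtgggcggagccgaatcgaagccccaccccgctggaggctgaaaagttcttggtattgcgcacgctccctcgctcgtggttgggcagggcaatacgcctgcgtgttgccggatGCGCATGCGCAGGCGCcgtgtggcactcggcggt
UQCRFS1: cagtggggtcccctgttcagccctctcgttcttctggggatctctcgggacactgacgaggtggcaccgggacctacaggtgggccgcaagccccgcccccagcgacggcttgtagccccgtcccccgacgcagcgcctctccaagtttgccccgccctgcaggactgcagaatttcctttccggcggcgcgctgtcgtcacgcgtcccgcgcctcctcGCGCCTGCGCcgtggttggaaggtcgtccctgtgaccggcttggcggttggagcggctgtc
ATP5MPL: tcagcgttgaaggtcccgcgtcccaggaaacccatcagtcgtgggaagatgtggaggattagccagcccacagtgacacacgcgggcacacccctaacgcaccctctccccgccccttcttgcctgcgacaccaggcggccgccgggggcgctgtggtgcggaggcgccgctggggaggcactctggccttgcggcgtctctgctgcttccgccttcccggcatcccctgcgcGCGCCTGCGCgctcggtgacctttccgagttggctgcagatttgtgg
COX5B: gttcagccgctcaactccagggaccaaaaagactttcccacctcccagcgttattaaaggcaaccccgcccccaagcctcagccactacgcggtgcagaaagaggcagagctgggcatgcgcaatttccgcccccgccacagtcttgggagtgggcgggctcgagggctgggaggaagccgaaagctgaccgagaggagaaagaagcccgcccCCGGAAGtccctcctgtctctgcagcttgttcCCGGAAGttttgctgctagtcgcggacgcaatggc
NDUFS3: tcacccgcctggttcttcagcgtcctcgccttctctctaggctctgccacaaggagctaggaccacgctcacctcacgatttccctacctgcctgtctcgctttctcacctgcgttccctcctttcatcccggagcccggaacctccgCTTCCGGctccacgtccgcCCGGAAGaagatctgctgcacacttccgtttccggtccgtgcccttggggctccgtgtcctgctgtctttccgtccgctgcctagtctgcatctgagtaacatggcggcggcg
NDUFS8: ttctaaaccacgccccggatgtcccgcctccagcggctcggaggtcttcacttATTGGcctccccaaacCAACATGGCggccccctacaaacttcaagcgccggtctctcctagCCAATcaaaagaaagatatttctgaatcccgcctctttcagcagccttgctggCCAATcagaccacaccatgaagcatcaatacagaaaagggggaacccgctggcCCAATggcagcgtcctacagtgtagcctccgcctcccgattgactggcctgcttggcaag
NDUFA3: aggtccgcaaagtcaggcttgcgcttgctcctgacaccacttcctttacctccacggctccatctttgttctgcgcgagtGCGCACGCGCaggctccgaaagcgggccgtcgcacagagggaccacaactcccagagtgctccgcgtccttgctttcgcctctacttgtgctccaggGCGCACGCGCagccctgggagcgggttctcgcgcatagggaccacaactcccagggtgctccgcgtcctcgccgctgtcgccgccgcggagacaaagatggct
The capitals in NDUFA8 are 2 overlapping NRF1 matches that straddle the start, and NDUFA3 holds 2 separate ones. COX5B and NDUFS3 hold 2 ETS matches each, and NDUFS8 a YY1 match and 4 CCAAT matches. A YY1 match of UQCRFS1 lies past the stretch shown.

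A RefSeq promoter was found for 65 of the 79 members and for 10250 genes of the tables, searched from 250 bases before to 50 after the start. NRF1 letters stood in 16 of 65 members (24.6%) against 11.9% of all promoters, ETS letters in 19 (29.2% against 19.2%) and YY1 letters in 11 (16.9% against 5.21%). MYC/MAX letters were found in 12.3% of members against 10.2%, and the CCAAT core in 30.8% against 36.6%. The letters did not follow one pattern of expression: NRF1, ETS or YY1 stood in 6 of the 11 promoters of members higher in both carcinoma lines, in 10 of the 18 of members called higher only in SCC15, and in 15 of the 22 of members called in no comparison of lines. A match describes the letters and says nothing about binding in these cells.

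To check the labels, YBX1 itself was read in every library. It lay at 107, 79.1 and 98.0 CPM in SCC25 +YBX1 and at 38.4, 26.1 and 12.6 CPM in SCC25 -YBX1, and at 34.5, 47.1 and 63.8 CPM in SCC15 +YBX1 against 10.3, 13.1 and 8.75 CPM in SCC15 -YBX1. The groups did not overlap in either line. Over both lines YBX1 fell by 2.08 on the log2 scale (SE 0.24, 76.4% lower, limma adjusted p = 0.0103), with 75.2% lower in SCC25 (adjusted p = 0.290) and 77.5% lower in SCC15 (adjusted p = 0.326) when each line was tested alone. OKF6 held 108, 285 and 330 CPM, more than the carcinoma lines: SCC15 +YBX1 lay 2.21 below OKF6 on the log2 scale (adjusted p = 0.000707) and SCC25 +YBX1 1.21 below (adjusted p = 0.0375).

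The share of all reads that fell on the 79 members differed by line. It was 1.73%, 1.28% and 1.53% in the OKF6 libraries, 1.95%, 1.96% and 1.78% in SCC25 +YBX1 and 2.56%, 2.81% and 2.80% in SCC15 +YBX1. By this share, every SCC15 +YBX1 library lay above every SCC25 +YBX1 library, and all of these above OKF6. The -YBX1 libraries overlapped their references, at 1.99%, 1.90% and 1.82% (SCC25) and 2.23%, 2.95% and 2.87% (SCC15). Normalised library size over counted reads was 1.08 to 1.16 in SCC15 +YBX1 and 0.87 to 0.91 in SCC25 +YBX1. Member reads over normalised size therefore lay closer, and these groups overlapped. The median log2 CPM over members did not overlap: 7.69 to 7.90 in SCC15 +YBX1, 7.40 to 7.57 in SCC25 +YBX1 and 6.78 to 7.20 in OKF6. The 13 subunit genes of mitochondrial DNA were ordered otherwise, with 6.89%, 10.3% and 10.4% of reads in OKF6, 9.67%, 9.36% and 8.26% in SCC25 +YBX1 and 8.21%, 6.197% and 7.19% in SCC15 +YBX1. For each read on a member there were 3.98 to 8.04 reads on a mitochondrial gene in OKF6, 4.64 to 4.97 in SCC25 +YBX1 and 2.21 to 3.21 in SCC15 +YBX1, so that SCC15 did not overlap the other lines.

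**Figure D1:**
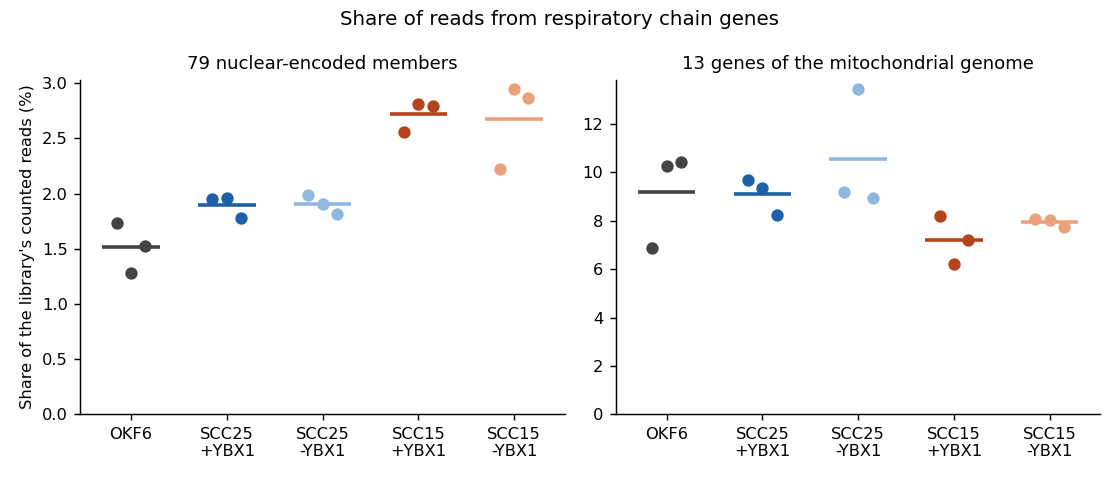
Share of counted reads (percent, linear axes) on the 79 nuclear-encoded members and on the 13 subunit genes of mitochondrial DNA, 1 point per library, by group. The shares are not scaled to the normalised library size. The nuclear share rises from 1.28 to 1.73% in OKF6 to 2.56 to 2.81% in SCC15 +YBX1, whereas the mitochondrial share of SCC15 +YBX1, 6.197 to 8.21%, is not above that of OKF6.

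Nuclear-encoded members were mostly higher in SCC15 than in OKF6. Of 79, 35 rose and 4 fell, that is 44.3% and 5.06%, where 26.9% and 23.4% of all genes did (limma on the deposited log2 values, adjusted p under 0.05). In all, 49.4% of members were called against 50.3% of all genes, and 35 of the 39 calls were higher. The median log2 difference was 0.73 over members and 0.10 over all genes. Calls spread over the complexes: 17 higher and 2 lower of 36 in complex I, 1 higher of 4 in complex II, 4 higher of 9 in complex III, 4 higher of 11 in complex IV, and 9 higher and 2 lower of 18 in complex V.

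In SCC25 the shift against OKF6 went the same way and was smaller. There 21 members rose and 3 fell (26.6% and 3.80%, against 18.9% and 11.3% of all genes), and 30.4% were called in all against a background of 30.2%. The median difference was 0.44 over members and 0.13 over all genes. By complex, 11 rose and 2 fell in complex I, 1 rose in complex II, 1 in complex III and 4 in complex IV, and 4 rose and 1 fell in complex V. The count was set by few libraries: 12 were called without SCC25 +YBX1 replicate 1 and also without replicate 2, 15 without replicate 3, and 36 without OKF6 replicate 1. Quantile normalization turned the split from 21 higher and 3 lower into 12 higher and 7 lower.

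Between the carcinoma lines, 18 members were higher and 5 lower in SCC15 (22.8% and 6.33%, against 20% and 23.6% of all genes). In all, 29.1% of members were called against 43.6% of all genes. The median was 0.25 over members and -0.01 over all genes. The higher calls were 11 of complex I, 3 of complex III and 4 of complex V, and the lower ones 3 of complex I, 1 of complex III and 1 of complex IV; none of complex II was called. Leaving out a library left 13 calls without SCC25 +YBX1 replicate 1 and 15 without SCC25 +YBX1 replicate 2, SCC25 +YBX1 replicate 3 or SCC15 +YBX1 replicate 2. Quantile normalization gave 30 higher and 3 lower.

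**Figure D2:**
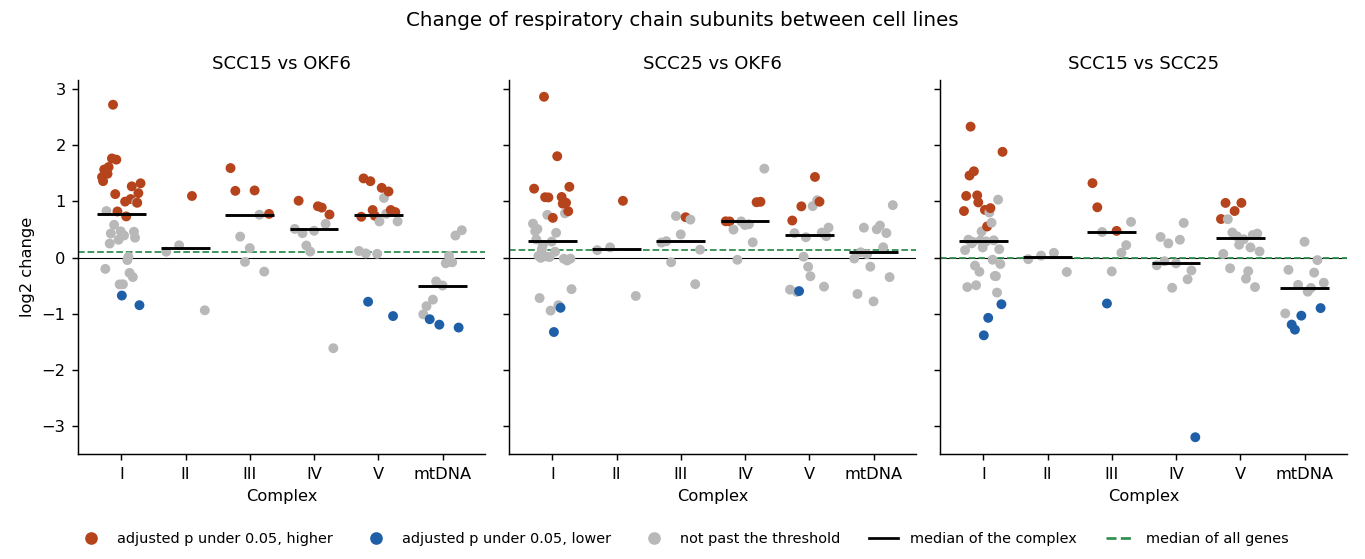
Log2 difference of each member in the 3 comparisons of lines, by complex, with the 13 mitochondrial genes beside them; red and blue points passed the test as higher and lower, grey ones did not, black bars are the medians of a complex and the green dashed line is the median of all genes. Nuclear members lie mostly above the line in SCC15 against OKF6 (median 0.73 against 0.10), and the mitochondrial genes mostly below it (median -0.50).

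Higher calls in both carcinoma lines against OKF6 were made for 15 of 79 members, beside 11.5% of all genes. Both comparisons share the OKF6 libraries. NDUFA8 stood farthest out of these members. NDUFA8 is an accessory subunit of complex I that faces the intermembrane space, coded at chr9:122144058-122159779 on the minus strand. It lay at 104, 50.4 and 84.0 CPM in OKF6, 525, 600.3 and 540.5 CPM in the SCC25 +YBX1 libraries and 472, 549 and 490.1 CPM in the SCC15 +YBX1 libraries. The lowest carcinoma library was thus several times above the highest OKF6 library. The log2 difference from OKF6 was 2.72 in SCC15 (SE 0.25, 6.60-fold, limma adjusted p = 5.74e-06) and 2.86 in SCC25 (SE 0.25, 7.28-fold, adjusted p = 2.28e-05), while the carcinoma lines themselves differed by -0.14 with a 95% interval of -0.69 to 0.40. The median of its 27 tested neighbours within 2 Mb was -0.58 in SCC15 and 0.51 in SCC25 against OKF6, beside 0.10 and 0.13 over all genes.

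The core subunits, those that carry the redox centres of complex I, all 4 of complex II, the Rieske protein of complex III and the catalytic pair of the ATP synthase head, number 14. Against OKF6, 7 were called higher, 1 lower and 6 not called in SCC15, and the counts were the same in SCC25. Of all genes, 26.9% were called higher and 23.4% lower in SCC15, and 18.9% and 11.3% in SCC25. The lower calls were NDUFV2 in SCC15 and NDUFS1 in SCC25. Among those higher than OKF6 in SCC15 as well as in SCC25 were NDUFV1, NDUFS3, NDUFS8, SDHC, UQCRFS1 and ATP5F1B. NDUFV1, which holds the FMN that takes electrons from NADH, lay at 41.9, 102 and 103 CPM in OKF6, 187, 195 and 167 CPM in SCC25 +YBX1 and 150.5, 165 and 195 CPM in SCC15 +YBX1. Both carcinoma lines lay above all OKF6 libraries, by 1.15 in SCC15 (SE 0.31, limma adjusted p = 0.0105) and 1.26 in SCC25 (SE 0.31, adjusted p = 0.0118), with OKF6 replicate 1 the lowest of its group. NDUFS3, a core subunit of the peripheral arm, held 116, 109.9 and 129 CPM in OKF6, 223, 262 and 208 CPM in SCC25 +YBX1 and 226, 315 and 325 CPM in SCC15 +YBX1, again without overlap. UQCRFS1, the Rieske iron-sulphur protein, held 91.7, 76.6 and 86.2 CPM in OKF6, 136, 150.4 and 132 CPM in SCC25 +YBX1 and 186, 213 and 183 CPM in SCC15 +YBX1. It lay 1.196 above OKF6 in SCC15 (SE 0.16, adjusted p = 0.000112) and 0.72 in SCC25 (SE 0.16, adjusted p = 0.0074), and its difference between the carcinoma lines, 0.48, passed the test (adjusted p = 0.0351) but not when any single library was left out. SDHC, a membrane anchor of complex II, was higher by 1.098 and 1.01 than in OKF6, although 51.2% of the 75-base pieces of its 3′ end matched the genome as well elsewhere, so its reads could be split with copies. Calls of ATP5F1B and NDUFS8 in SCC25 were each lost without single libraries, ATP5F1B being called in 1 and NDUFS8 in 1 of 6 such fits. In SCC15 against OKF6, ATP5F1B was called in 3 and NDUFS8 in 5 of 6.

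NDUFA10, an accessory subunit of complex I with a kinase-like fold, lay at 60.1, 64.2 and 85.2 CPM in OKF6, 153, 194 and 143 CPM in SCC25 +YBX1 and 155, 169 and 214 CPM in SCC15 +YBX1. The carcinoma lines did not overlap OKF6 and were higher by 1.23 (SE 0.21, limma adjusted p = 0.0017) and 1.36 (SE 0.21, adjusted p = 0.000293). NDUFB9, an accessory subunit of the membrane arm, was highest in SCC25 +YBX1, at 1091, 1004 and 769 CPM, against 359, 543 and 465 CPM in SCC15 +YBX1 and 379.6, 223 and 233 CPM in OKF6. SCC25 was above OKF6 by 1.81 (SE 0.26, adjusted p = 0.000587) and SCC15 below SCC25 by 1.07 (SE 0.26, adjusted p = 0.00668), whereas the OKF6 and SCC15 libraries overlapped (difference 0.73, adjusted p = 0.0361). ATP5MG, subunit g of the ATP synthase, held 2128, 2191 and 2194 CPM in SCC25 +YBX1 and 1660.2, 444 and 699 CPM in OKF6. Its difference of 1.44 (SE 0.42, adjusted p = 0.0256) was called in just 1 of 6 leave-one-out fits.

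A set of 14 members was higher in SCC15 than in both OKF6 and SCC25, beside 13.7% of all genes, and these comparisons share the SCC15 libraries. Accessory subunits of complex I, which make up 29 of the 79 members, were 9 of the 14: NDUFA1, NDUFA2, NDUFA3, NDUFA7, NDUFA11, NDUFB1, NDUFB8, NDUFB10 and NDUFV3. The other members were UQCR10, UQCR11 and UQCRFS1 of complex III and ATP5F1C and ATP5MC2 of complex V. NDUFA3, whose promoter is shown above and which lies at chr19:54102728-54109257 on the plus strand, held 179, 134 and 148 CPM in SCC15 +YBX1, 27.5, 44.4 and 22.8 CPM in SCC25 +YBX1 and 36.7, 58.3 and 58.1 CPM in OKF6. No SCC15 library came near the others, and the excess was 2.33 over SCC25 (SE 0.28, 5.04-fold, limma adjusted p = 6.63e-05) and 1.61 over OKF6 (SE 0.28, adjusted p = 0.000716). Its 59 tested neighbours had a median of 0.23 in SCC15 against SCC25.

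NDUFV3, an accessory subunit of the NADH-oxidising module (chr21:42879644-42913304, plus strand), held 261, 194 and 211 CPM in SCC15 +YBX1, 59.9, 68.8 and 51.7 CPM in SCC25 +YBX1 and 94.0, 63.3 and 115 CPM in OKF6. SCC15 stood clear of both, by 1.88 over SCC25 (SE 0.24, limma adjusted p = 9.25e-05) and 1.32 over OKF6 (SE 0.24, adjusted p = 0.000869). Here the 30 neighbours were high as well, with a median of 0.98 in SCC15 against SCC25. Across 78 members with neighbours, the member's difference and its neighbours' median went together moderately, with Pearson's r of 0.45 for SCC15 against SCC25, 0.34 for SCC15 against OKF6 and 0.44 for SCC25 against OKF6; these points share libraries, and some share neighbours.

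NDUFA7 and NDUFA2, accessory subunits of the peripheral arm, followed the same pattern. NDUFA7 held 145, 138 and 124 CPM in SCC15 +YBX1, 52.3, 45.0 and 43.1 CPM in SCC25 +YBX1 and 50.7, 27.9 and 44.8 CPM in OKF6 (log2 excess 1.54 over SCC25, limma adjusted p = 0.000351, and 1.77 over OKF6, adjusted p = 9.86e-05). NDUFA2 held 179, 225 and 226 CPM against 90.1, 69.0 and 70.2 CPM and 93.4, 50.9 and 86.1 CPM (excess 1.46, adjusted p = 0.000687, and 1.49, adjusted p = 0.000461). In both genes SCC25 and OKF6 overlapped each other and neither overlapped SCC15. NDUFB10, of the membrane arm, increased from 64.7, 109 and 131 CPM in OKF6 through 149, 190.4 and 159 CPM in SCC25 +YBX1 to 234, 366 and 407 CPM in SCC15 +YBX1, with an excess of SCC15 over OKF6 of 1.74 (SE 0.29, adjusted p = 0.000467). UQCR10, a small subunit of complex III, held 272, 355 and 339.8 CPM in SCC15 +YBX1, 125, 134 and 124 CPM in SCC25 +YBX1 and 98.2, 114 and 107 CPM in OKF6, an excess of 1.33 over SCC25 (SE 0.17, adjusted p = 8.87e-05) and 1.59 over OKF6 (SE 0.17, adjusted p = 1.71e-05).

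**Figure D3:**
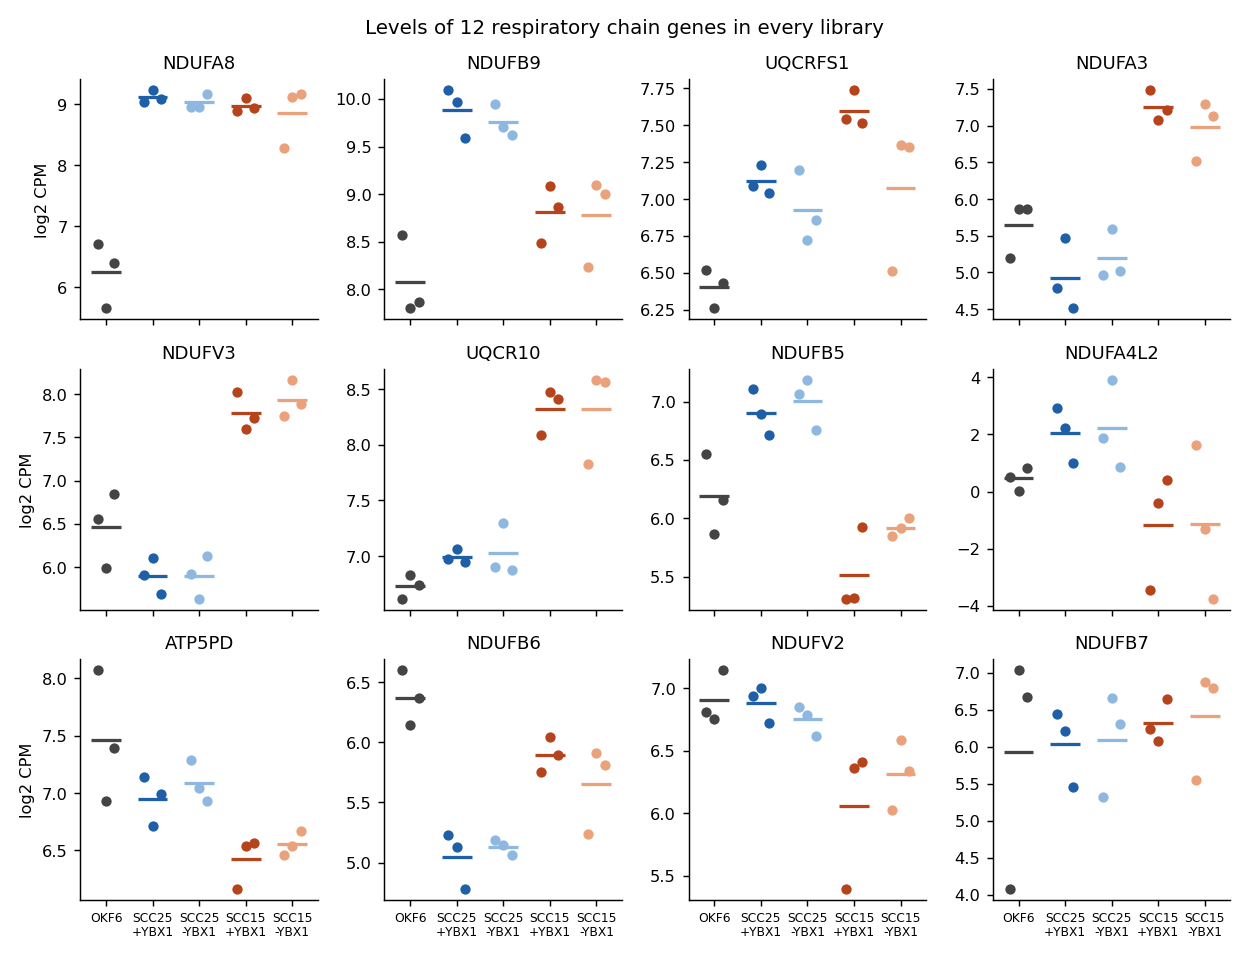
Level in log2 CPM of 12 members in each library (points), with the mean of the log2 values of each group as a bar. NDUFA8 is several-fold higher in all carcinoma groups than in OKF6, NDUFA3 and NDUFV3 are high in the SCC15 groups, and NDUFB5 is highest in SCC25 and lowest in SCC15.

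Few members went the other way. NDUFB5, an accessory subunit of the membrane arm at chr3:179604690-179627647 on the plus strand, was called in all 3 comparisons and in opposite directions. It held 137, 119 and 105 CPM in SCC25 +YBX1, 94.0, 58.5 and 71.2 CPM in OKF6 and 39.8, 39.9 and 60.8 CPM in SCC15 +YBX1. SCC25 was above OKF6 by 0.71 (SE 0.24, limma adjusted p = 0.0484) and SCC15 below OKF6 with a log2 difference of -0.67 (SE 0.24, adjusted p = 0.0388) and some overlap, while the carcinoma lines lay apart, with SCC15 minus SCC25 at -1.38 (SE 0.24, adjusted p = 0.000902). The median of its 12 neighbours was -0.94 in SCC15 against SCC25.

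NDUFV2, the core iron-sulphur partner of NDUFV1, was lower in SCC15 +YBX1, at 42.2, 82.4 and 84.8 CPM, than in OKF6, at 112, 108 and 141 CPM, and in SCC25 +YBX1, at 123, 128 and 105 CPM. The differences of -0.85 from OKF6 (limma adjusted p = 0.0219) and -0.83 from SCC25 (adjusted p = 0.0275) rested in part on SCC15 +YBX1 replicate 1, the lowest library, and were called in 4 and 3 of 6 fits that left out a library. NDUFB6, a membrane-arm subunit, was lowest in SCC25 +YBX1, at 37.5, 35.0 and 27.5 CPM, against 96.8, 70.7 and 82.7 CPM in OKF6 and 53.8, 66.0 and 59.5 CPM in SCC15 +YBX1. It lay -1.32 from OKF6 in SCC25 (SE 0.21, adjusted p = 0.00095), and 0.85 higher in SCC15 than in SCC25 (SE 0.21, adjusted p = 0.00662). NDUFS1, the largest iron-sulphur subunit of complex I, was called lower in SCC25, at 14.2, 11.3 and 18.8 CPM against 28.6, 28.3 and 23.9 CPM in OKF6 (-0.89, adjusted p = 0.0449), in 1 of 6 fits that left out a library. UQCRC1, a core protein of complex III, was lower in SCC15 than in SCC25 (88.0, 187 and 172 CPM against 293, 237 and 224 CPM, -0.82, adjusted p = 0.0302), and this held in 2 of 6 such fits.

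In the ATP synthase, ATP5PD, subunit d of the peripheral stalk, was lower in SCC15 +YBX1, at 71.8, 93.2 and 94.8 CPM, than in OKF6, at 268, 122 and 168 CPM (-1.04, SE 0.27, limma adjusted p = 0.00863), with SCC25 +YBX1 in between at 141, 105 and 127 CPM. ATP5F1E, the epsilon subunit of the central stalk, was the only member called lower than OKF6 in both lines. It held 545, 565 and 787 CPM in OKF6, 433, 432 and 376 CPM in SCC25 +YBX1 and 323, 369 and 397 CPM in SCC15 +YBX1. The difference was -0.78 in SCC15 (SE 0.20, adjusted p = 0.00693) and -0.60 in SCC25 (SE 0.20, adjusted p = 0.0436), the latter called in 2 of 6 fits that left out a library.

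Isoforms whose use is known to depend on tissue or oxygen were read separately. NDUFA4L2, the oxygen-sensitive relative of NDUFA4, had 7, 4 and 10 reads in OKF6, 40, 23 and 9 reads in SCC25 +YBX1 and 0, 4 and 8 reads in SCC15 +YBX1. Its fitted difference of -3.20 between the carcinoma lines (limma adjusted p = 0.0167) was lost without SCC25 +YBX1 replicate 1 or replicate 2. NDUFA4 itself was higher than in OKF6 in both lines, by 0.77 in SCC15 and 0.99 in SCC25. COX6A1, COX6B1 and COX7A2, the widely expressed forms of these complex IV subunits, gave no call in any comparison of lines, and 51.2% of the 3′-end pieces of COX6A1 matched elsewhere in the genome as well. COX8A, the widely expressed form of subunit 8, held 150.5, 314 and 324 CPM in OKF6, 487, 627 and 390.0 CPM in SCC25 +YBX1 and 359.9, 337 and 441 CPM in SCC15 +YBX1. The OKF6 libraries lay below those of both lines, and the difference was called in SCC25 (0.99, SE 0.30, limma adjusted p = 0.0316) but not in SCC15 (0.60, adjusted p = 0.122). The call in SCC25 was lost without SCC25 +YBX1 replicate 1 or replicate 2, with only the compared groups fitted and under quantile normalization.

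Of the 13 subunit genes of mitochondrial DNA, none was called higher in SCC15 than in OKF6 and 3 were called lower, beside 23.4% of all genes called lower. The 3 were ND5 with a log2 difference of -1.24 (SE 0.21, limma adjusted p = 0.000636), CYTB with -1.19 (SE 0.32, adjusted p = 0.0103) and COX1 with -1.096 (SE 0.25, adjusted p = 0.00412). Their median was -0.50, beside 0.73 over the nuclear members and 0.10 over all genes. Against SCC25, ND5, CYTB, COX1 and COX2 were lower in SCC15 and the median was -0.54. In SCC25 against OKF6 none was called and the median was 0.10. The count in SCC15 against OKF6 moved between 2 and 7 over the alternatives, with 7 without OKF6 replicate 1, and quantile normalization gave 1 higher and 3 lower. In SCC15 against SCC25 it was 2 whichever library of these groups was left out, and 1 under quantile normalization with a median of -0.09. In SCC25 against OKF6 up to 2 were called, as without OKF6 replicate 1.

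Other genes of the pathway were read from fixed lists. Of all genes, 26.9% were called higher and 23.4% lower in SCC15 than in OKF6, 18.9% higher and 11.3% lower in SCC25 than in OKF6, and 20% higher and 23.6% lower in SCC15 than in SCC25, and the lists' counts stand beside these shares with no test. Of 7 subunits and cytochromes outside the symbols, 4 were higher and none lower in SCC15 than in OKF6, among them ATP5IF1, the inhibitor of the reverse reaction of ATP synthase (1.74), and none was called in SCC25 against OKF6. Of 18 assembly factors of complex I, 8 were higher and none lower in SCC15 than in OKF6 (NDUFAF3 1.52 and NDUFAF4 1.501). In SCC25 against OKF6 ECSIT was higher (1.96) and TMEM126B lower (-1.75). Of 26 assembly factors of complex IV, 9 were higher and 1 lower in SCC15 than in OKF6 (COX14 1.69, COX11 1.55 and COX20 -1.095), whereas SCC25 had 3 higher and 4 lower (COA4 2.21 and COX10 -1.54).

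Assembly factors of the other complexes were also read in SCC15 against OKF6. SDHAF4 of complex II was lower (-1.60, 1 of 4), and UQCC3 and BCS1L of complex III were higher (2 of 6). FMC1 (3.05) and ATPAF1 (1.83) of complex V were higher (2 of 4). Of 14 regulators of mitochondrial biogenesis, 4 were higher and 2 lower. Among the higher were GABPA, the DNA-binding chain of GABP, at 1.43, and TFAM, which packages mitochondrial DNA, at 1.34. The lower ones were ESRRA, a nuclear receptor that activates respiratory genes, at -1.08, and YY1 at -0.62. For ESRRA the difference between SCC25 and OKF6 was 1.13, a higher level, and that between SCC15 and SCC25 -2.21. Of 17 genes of pyruvate dehydrogenase and the citric acid cycle, 7 were higher and 1 lower in SCC15 than in OKF6 (PDHB 1.499, MDH2 1.43 and OGDH -1.80), and 3 higher and none lower in SCC25 (IDH3A 1.15 and PDHA1 1.01).

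In SCC25 against OKF6 the remaining lists held few calls. None of 4 assembly factors of complex II was called, 1 of 6 of complex III was higher (UQCC3, 1.13) and 1 lower (TTC19, -0.73), 1 of 4 of complex V was higher, and of the 14 regulators 3 were higher and none lower. Between the carcinoma lines, ATP5IF1 was higher in SCC15 (1.29), as were 5 assembly factors of complex I, with 1 lower (NDUFAF3 1.55 and NDUFAF1 -0.87), and 8 of complex IV, with 4 lower (PET100 1.63 and SURF1 -1.70). Complex II factors gave 2 higher and 1 lower, complex III factors 1 higher and 1 lower, and complex V factors 2 higher (FMC1 2.87 and ATPAF1 1.195). Of the regulators 3 were higher and 3 lower in SCC15 than in SCC25 (GABPA 1.77 and PPRC1 -1.10), and of the pyruvate dehydrogenase and citric acid cycle genes 3 were higher and 2 lower (PDHB 2.10 and PDHA1 -0.83).

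The spread between replicates of OKF6 limited these comparisons. The median SD over members was 0.484 in OKF6 on the log2 scale, against 0.162 (SCC25 +YBX1) and 0.203 (SCC15 +YBX1). In OKF6 replicate 1, members with GC-rich 3′ ends were low: NDUFB7 had 88, 581 and 607 reads in the 3 libraries, ATP5F1D 17, 119 and 161, and NDUFS7 61, 168 and 215. Across the 79 members, the deviation of OKF6 replicate 1 from its group mean fell with the GC content of the last 500 transcript bases (Spearman's rho -0.49, a description across genes of 1 library), while replicates 2 and 3 went the other way (0.47 and 0.43). The deviations of 3 libraries from their own mean offset each other, so opposite signs within a group follow in part from the measure. SCC25 -YBX1 replicate 1 behaved like OKF6 replicate 1 (-0.62) and replicate 2 the opposite (0.55). Over 6454 genes the same measure was -0.17, -0.28 and 0.26 for OKF6 replicate 1 and SCC25 -YBX1 replicates 1 and 2. Its part in the calls was not tested beyond leaving out each library.

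**Figure D4:**
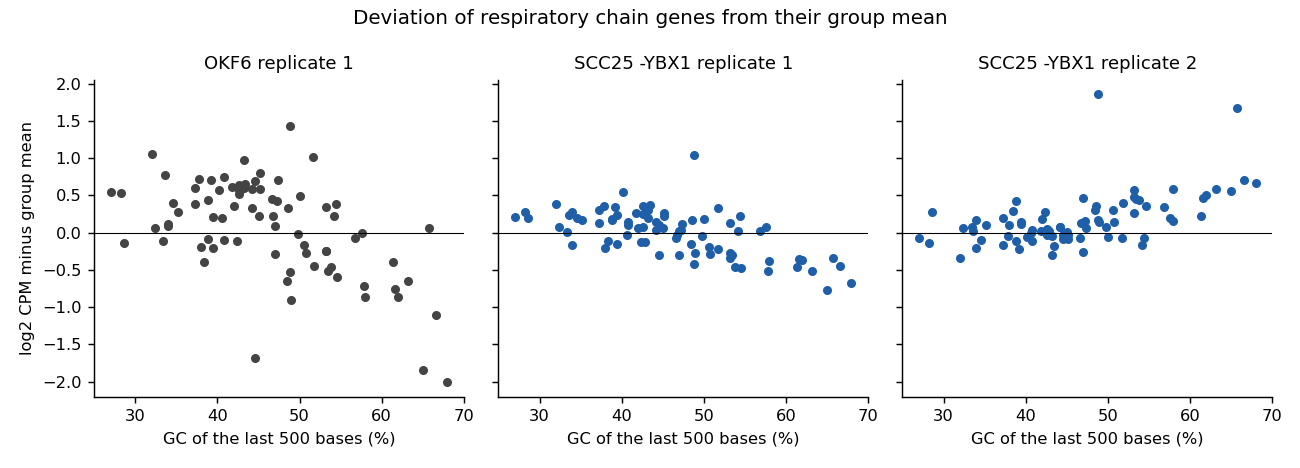
Deviation of each member from its group mean (log2) against the GC content of the last 500 bases of its transcript (percent), in 3 libraries. The cloud slopes down in OKF6 replicate 1 (rho -0.49) and SCC25 -YBX1 replicate 1 (rho -0.62) and up in SCC25 -YBX1 replicate 2 (rho 0.55).

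To ask whether loss of YBX1 changed respiratory chain transcripts, -YBX1 was compared with +YBX1 in each line. No member passed the test in SCC25, in SCC15, over both lines or in the difference between them (limma, and also limma with voom weights), against a background of 0% of all genes in each line and 0.0077% over both lines, where YBX1 itself was the only call. At an unadjusted p under 0.05 there were 0 members in SCC25 (3.09% of all genes), 2 in SCC15 (2.32%), 1 over both lines (2.15%) and 1 in the difference (2.26%). Over members the change had a median of 0.04 in SCC25, and of -0.02 in SCC15. None of the mitochondrial genes or of the pathway lists held a call either.

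The data bounded most changes, in a fit that did not pair the libraries. The 95% interval lay within 2-fold in either direction for 75 of 79 members in SCC25 and 75 in SCC15, and within 1.5-fold for 49 and 40. Intervals that reached past 2-fold belonged in both lines to ATP5MGL, NDUFA4L2 and NDUFB2-AS1, and to UQCRHL in SCC25 and ATP5MG in SCC15.

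**Figure D5:**
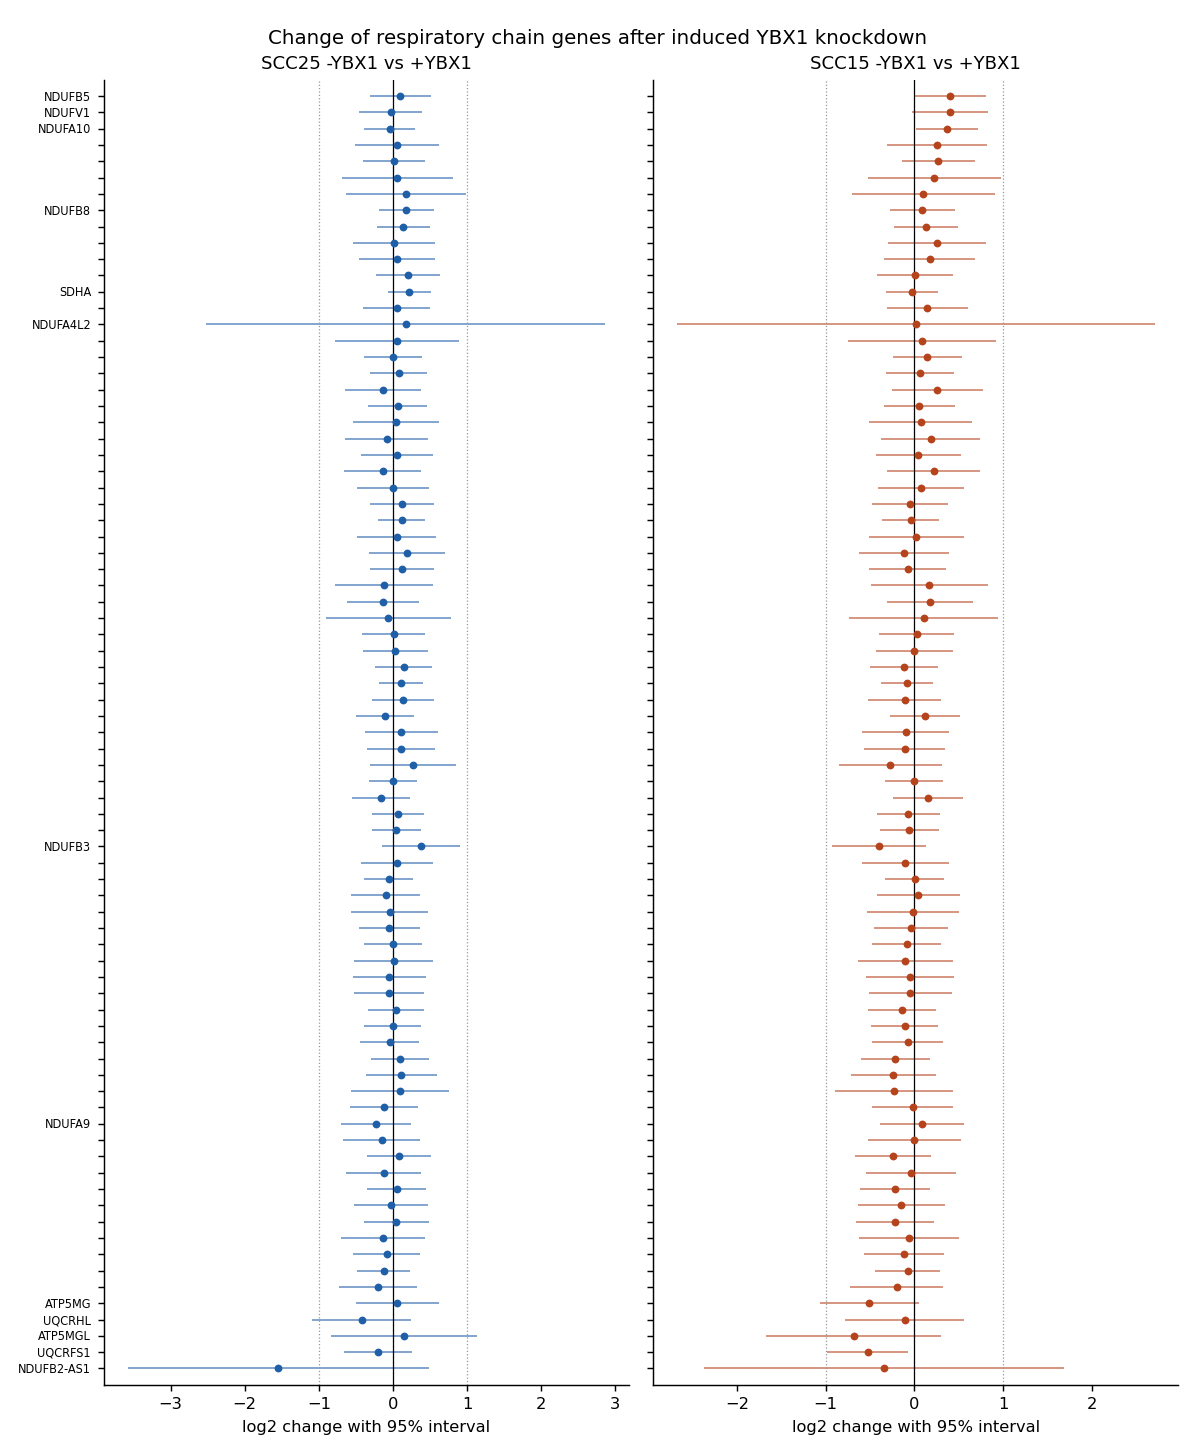
Log2 change of each of the 79 members in -YBX1 against +YBX1 with its 95% interval, in SCC25 and SCC15; dotted lines mark 2-fold in either direction, and names stand beside members with the lowest p-values or with an interval past these lines. In each line 75 of 79 intervals lie between the dotted lines and no member passed the test.

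UQCRFS1 had the lowest unadjusted p in SCC15 and over both lines. It lay at 91.2, 165 and 163 CPM in SCC15 -YBX1 against 186, 213 and 183 CPM in SCC15 +YBX1, and at 147, 105 and 116 CPM in SCC25 -YBX1 against 136, 150.4 and 132 CPM in SCC25 +YBX1. The SCC15 groups did not overlap and the SCC25 groups did. The fitted change was -0.52 in SCC15 (95% interval -0.98 to -0.07, limma adjusted p = 1.00) and -0.20 in SCC25 (interval -0.65 to 0.26), and the lines did not differ beyond their spread (0.32, interval -0.32 to 0.97). Without SCC15 -YBX1 replicate 1, the lowest library, the change in SCC15 was -0.24.

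NDUFA10 was 233, 222 and 232 CPM in SCC15 -YBX1 against 155, 169 and 214 CPM in SCC15 +YBX1, and 141, 170.4 and 159 CPM against 153, 194 and 143 CPM in SCC25. The change was 0.37 in SCC15 (interval 0.02 to 0.72) and -0.05 in SCC25. NDUFV1 (0.40, interval -0.03 to 0.83) and NDUFB5 (0.40, interval -0.01 to 0.81) had the next lowest p-values among positive changes in SCC15, and ATP5MG (-0.51) and NDUFB3 (-0.40) among negative ones. In SCC25 the lowest p-values belonged to SDHA (0.22), NDUFB3 (0.38) and NDUFB8 (0.18) on the positive side and to NDUFB2-AS1 (-1.55), UQCRHL (-0.42) and NDUFA9 (-0.23) on the negative side. NDUFB3, a membrane-arm subunit, had the lowest p in the difference between the lines (0.78, interval 0.03 to 1.52), with 131, 110.0 and 117 CPM against 128, 74.8 and 80.4 CPM in SCC25 and 65.0, 117 and 116 CPM against 111, 125 and 146 CPM in SCC15.

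NDUFA8, NDUFA3 and NDUFB5 were also read after the knockdown. NDUFA8 held 498, 497 and 578 CPM in SCC25 -YBX1 and 310.3, 558 and 577 CPM in SCC15 -YBX1, all above the highest OKF6 library of 104 CPM. NDUFA3 held 31.3, 48.1 and 32.4 CPM in SCC25 -YBX1 and 91.8, 158 and 140.5 CPM in SCC15 -YBX1, and NDUFB5 134, 145 and 108 CPM and 57.5, 60.3 and 64.2 CPM. Pair by pair, the SCC25 medians over members were -0.07, 0.11 and 0.02 and the SCC15 medians -0.21, 0.10 and 0.06, so no direction was shared by the 3 pairs of either line. In SCC25, 2 members did not overlap between -YBX1 and +YBX1 (background 7.31% of all genes), and in SCC15 4 did not (7.04%).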

How the data were processed

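Bulk RNA from 15 libraries (5 groups of 3) was read as QuantSeq 3′-end tags, 75 bases, single-end. The deposited values are log2 CPM, made by the authors with 0.5 reads added and a normalised library size; the submitters' processing notes name cutadapt, HISAT2, featureCounts and limma on hg38/GRCh38. The tables had been filtered to 12995 genes, 12719 with a symbol; 6 libraries in both tables agree within 5e-08. Whole reads were recovered for 100% of values (tolerance 0.05), and replicates differed beyond sampling noise (chi-square per degree of freedom 3.99 to 80.8). Depth was 4075290 to 6118501 reads, so 3 reads correspond to 0.414 to 0.677 CPM.

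Each table was fitted whole with limma 3.58.1 in R 4.3.3 (lmFit, eBayes with trend, all groups of the table, no replicate block), with 2-sided p-values adjusted by Benjamini-Hochberg over all genes and a threshold of 0.05; a fold change includes the 0.5 added reads and understates low genes. Within a line, -YBX1 and +YBX1 libraries of one number deviated from their group means together (correlations 0.14, 0.46 and 0.40 in SCC25, 0.51, 0.35 and 0.22 in SCC15, over 6497 genes). They were taken as pairs only in the pair-by-pair medians and in the alternative fits with a replicate block. The knockdown p-values and intervals printed above ignore this pairing. Members and lists were chosen with earlier results of these data known. Genes named by rule were YBX1 and the 5 highest and 5 lowest called members without overlap in each comparison of lines. The rule also held the 3 with the lowest p in each direction in each knockdown comparison. Tissue or oxygen isoforms and the core subunits were part of the rule too, though not every core subunit is reported. The others were named after their values were seen. Alternatives were 2 added reads, equal library medians, quantile normalization, genes above the first quartile, only the groups compared, voom weights, a replicate block and each library left out; the block within lines and the mitochondrial genes were added after seeing the data. Promoters are RefSeq's (GRCh38.p14); 75-base pieces of 3′ ends were mapped with minimap2 2.31-r1302. Tables were made with pandas 2.3.3 and Python 3.11.15. Some results of single members are not reported here.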

Additional observations from a re-analysis of the deposited data

Results flagged for a closer look

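NDUFB5 was the member called in opposite directions against OKF6 in the carcinoma lines: higher in SCC25 +YBX1 (0.71) and lower in SCC15 +YBX1 (-0.67). The difference between the lines was itself tested, with SCC15 minus SCC25 at -1.38 (SE 0.24, limma adjusted p = 0.000902). It passed in 6 of 6 fits that left out a library, with a range of -1.59 to -1.28.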

How the results depend on the processing

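Counts of members called and medians were recomputed under each alternative, 194 values in all, of which 179 stayed within the set limits and 15 moved. For SCC15 against SCC25 the median was 0.41 with equal library medians and 0.54 with quantile normalization, where the median of all genes was 0.14 and 0.17, and 36 members (27 higher, 9 lower) were called when the fit held just these groups. Leaving out a library gave 13 to 19 calls and a median of 0.13 to 0.32. For SCC25 against OKF6 14 members (13 higher, 1 lower) were called when the fit held just these groups, the median was 0.19 under quantile normalization (all genes -0.05), and 12 to 36 were called without 1 library. SCC15 against OKF6 gave 27 to 46 calls and a median of 0.57 to 0.81 without 1 library. In the knockdown, counts stayed at 0 throughout. Without 1 library the median in SCC15 ran from -0.11 to 0.17, the highest without SCC15 -YBX1 replicate 1, and the median of the line difference from -0.17 to 0.11. The cause of these moves was not tested, apart from fewer libraries in the fits that left some out. The cell lines' replicate numbers share a number only; with that replicate block, 22, 38 and 20 members were called in SCC15 against SCC25, SCC15 against OKF6 and SCC25 against OKF6. A replicate block in the knockdown fits, over all libraries or within each line, called 0 members, and changed no call. Of values for single named members, 1253 kept direction and call, 80 lost the call, 15 gained it and 0 reversed.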
